A study of Rattus norvegicus with 6 samples.

Results

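The glycolysis genes described here are 10 enzymes of glucose breakdown: the hexokinases Hk1, Hk2 and Hk3, the phosphofructokinases Pfkm, Pfkl and Pfkp, the phosphoglycerate enzymes Pgk1 and Pgam1, and the lactate dehydrogenases Ldha and Ldhb. They were taken as every non-control probe whose file name or transcript accession gives one of these symbols, which found 11 probes, 2 for Pfkl and 1 for each other gene, of 30367 probes and 17507 named genes on the array. The study measured RNA from the hippocampus of male Wistar rats on 6 Agilent arrays of 1 colour, 1 for control rats and 1 for each of days 21, 35, 45, 55 and 70 after both common carotid arteries had been permanently tied, a model of lasting low blood flow to the brain. The labels give the rats as 12 weeks old in the control group and as 13, 14, 15, 16 and 17 weeks old at the successive days. These ages rise more slowly than the days do, so the labelled ages and days do not match each other. Each array held pooled RNA. The sources used here do not state how many animals a pool held or whether the control rats had a sham operation. With 1 array per group no test between groups was possible, and every difference below compares 2 arrays.

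Glycolysis splits glucose into pyruvate and yields ATP without oxygen. Hexokinase traps glucose in the cell, phosphofructokinase commits it to the pathway, and lactate dehydrogenase converts pyruvate and lactate into each other, which keeps the pathway running when oxygen is short. Brain tissue depends on a steady supply of glucose, and several of these genes are known targets of the hypoxia-inducible factors.

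Levels are given as the processed signal, which is the spot's intensity after background subtraction by the scanner software. Differences are on the log2 scale after each array was divided by its own 75th percentile signal, so that a value of 1 is a 2-fold difference. Signals of different genes come from different probes, so a higher signal was not read as more RNA. Ratios between genes are given only as changes from control. Sums of markers add the signals of different probes, so the brightest probe weighs most in them. Of the 10 genes, 9 were matched by symbol to a table of RefSeq promoters (build GRCr8), and Pgk1 was not. The 250 bases before the annotated start are shown for Hk2, the gene with the widest measured movement, and for Ldha, a steady gene whose window held the most motif matches. Capitals mark ACGTG and GCGTG on either strand, the core letters that the hypoxia-inducible factors are known to bind.
Hk2, chr4:116841276-116841525, minus strand: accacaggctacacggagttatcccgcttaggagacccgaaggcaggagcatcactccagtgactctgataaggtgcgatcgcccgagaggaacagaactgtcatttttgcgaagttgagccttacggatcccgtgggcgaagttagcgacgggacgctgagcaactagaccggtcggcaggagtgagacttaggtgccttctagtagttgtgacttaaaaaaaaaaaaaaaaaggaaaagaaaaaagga
Ldha, chr1:106507842-106508091, plus strand: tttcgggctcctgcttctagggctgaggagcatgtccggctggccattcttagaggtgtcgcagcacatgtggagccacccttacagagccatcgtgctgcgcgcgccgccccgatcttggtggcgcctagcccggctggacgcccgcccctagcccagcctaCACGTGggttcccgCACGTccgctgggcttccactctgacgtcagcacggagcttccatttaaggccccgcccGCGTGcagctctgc

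The Ldha window held 3 matches of ACGTG and 1 of GCGTG, and 2 of the ACGTG matches overlap as the palindrome CACGTG, read once on each strand. The Hk2 window held neither motif, which says only that these letters are not in these 250 bases. Among the 9 matched genes, 5 had ACGTG, 5 had GCGTG and 8 had either in at least 1 promoter, where Hk1 had 2 promoter entries. Of all 33469 promoters of this length in the table, 16.6% held ACGTG, 25.9% held GCGTG and 36.7% held either. A match is a description of the letters and no measurement of binding.

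Most members stayed near the control level, and Hk2 departed from it furthest among measured values on spots without a mark. Hk3 was not well above background at days 55 and 70, so the size of its departure there is not known. Hk1, Pfkp, Pgk1, Ldha and Ldhb, all brightly measured, stayed within 0.20 log2 units of control at all 5 days, a fold of 1.15 or less, and between -0.26 and 0.25 under the alternatives that gave a value. The alternative without marked local backgrounds gave none for Pfkp and Pgk1, whose control spots carry such a mark. Hk2 was 2.36-fold higher than control at day 21, lay at the control level at day 35, and was between 1.76-fold and 2.07-fold lower at days 45, 55 and 70. Hk3 gave a single high value at day 45 on a spot with an uneven local background, and the Pfkm spot carried an outlier mark on the control array. Since this is whole tissue, fewer cells of a type and less RNA per cell cannot be told apart in any of these values.

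**Figure D1:**
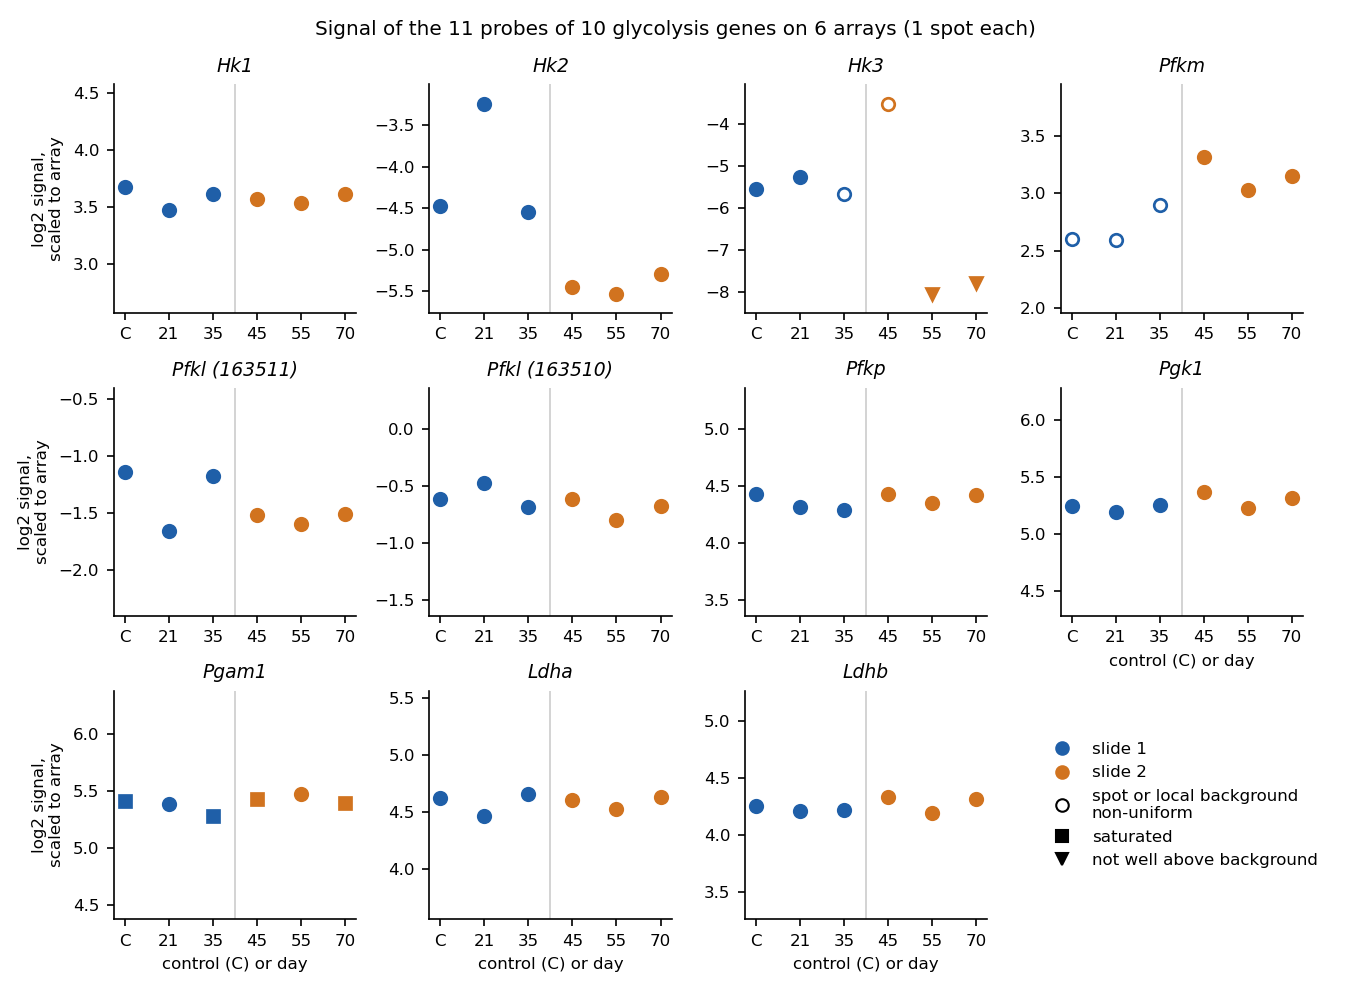
Scaled log2 signal (vertical axis, 0 is the array's 75th percentile) of each of the 11 probes on the control array (C) and at days 21 to 70, 1 spot per point, with slide 1 in blue and slide 2 in orange. Hk1, Pfkp, Pgk1, Pgam1, Ldha and Ldhb form flat rows, whereas Hk2 is highest at day 21 (-3.24) and lowest at day 55 (-5.53). Panels share the same height of 2 log2 units unless the values needed more.

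The 6 arrays were spread over 2 slides, with control, day 21 and day 35 on slide 1 and days 45, 55 and 70 on slide 2, so for the 3 later days slide and time cannot be told apart. All 10 neuron markers were well above background on all 6 arrays. Between 74.5% and 80.2% of spots were well above background, and the 75th percentile signal was 1243 to 1504. Precision is limited by the number of arrays. The probes that were printed 10 times on each array gave the technical error of a difference between 2 single spots, an SD of 0.21 at signals of 20 to 80, 0.10 at 80 to 320, 0.08 on the next step of brightness, and 0.06 to 0.07 at brighter signals. This error holds neither animal nor labelling variation.

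Hk1 encodes the hexokinase that is found throughout the brain. Its probe (A_43_P11538) carries no genome position in the array file. Its signal was 16779 in control, 13839 at day 21, 18481 at day 35, 15777 at day 45, 14936 at day 55 and 17025 at day 70. The 6 values lay close together, with day 21 the lowest. After scaling, the differences from control were -0.20, -0.06, -0.10, -0.14 and -0.06 in order of day, so that Hk1 was below control each time by at most 1.15-fold. Its sign turned at days 35, 45 and 70 under some alternatives, which reached 0.04, 0.02 and 0.04. The order of scaled levels was control, day 35, day 70, day 45, day 55 and day 21, and the whole range was 0.20.

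Hk2 encodes the inducible hexokinase that is abundant in muscle and fat and binds to mitochondria. Its probe (A_64_P032574) lies at chr4:116925790-116925849 in build rn4, and exon or UTR annotation was not used here. The signal was 59.0 in control, 132 at day 21, 64.4 at day 35, 30.3 at day 45, 27.9 at day 55 and 35.4 at day 70. All 6 spots were well above background and none carried an outlier mark, but all were dim, far below the array's 75th percentile. Day 21 stood above every other array, control and day 35 lay together, and the 3 arrays of slide 2 were lowest. The differences from control were 1.24 (2.36-fold higher), -0.07, -0.98 (1.97-fold lower), -1.05 (2.07-fold lower) and -0.82 (1.76-fold lower). In the order of levels, control and day 35 differed by 0.07, days 70 and 45 by 0.16 and days 45 and 55 by 0.07, all under the 0.21 that single spots of this brightness vary by. The steps from day 21 down to control (1.24) and from day 35 down to day 70 (0.75) were larger than that. Relative to Hk1 on the same arrays, Hk2 changed by 1.44, -0.01, -0.87, -0.91 and -0.76 log2 units from control.

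At day 21 Hk2 was the 1 member at least 2-fold from control, beside 5.45% of all genes compared in either direction and 3.58% higher. When genes were ranked by mean level and divided into 3 equal classes, Hk2 fell in the middle class, in which 3.62% were at least 2-fold higher at day 21. At day 35 no member reached 2-fold, beside 1.57% of all genes. At day 55 Hk2 was 1 of 2 members at least 2-fold lower, beside 5.59% of all genes in either direction and 4.94% lower. At day 70 no member reached 2-fold, beside 7.38% of all genes. Lower values of dim genes were common on the later arrays. In the middle class, the share of genes lower by 2-fold or more was 5.71% at day 45, 3.93% at day 55 and 5.73% at day 70, against 0.634% at day 35. Hk2 therefore lay inside the central 95% of all genes at days 35, 45, 55 and 70 and above it at day 21, where that range was -0.69 to 1.10.

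The higher Hk2 value at day 21 kept its direction under all 10 alternatives that gave it a value and was at least 2-fold in 9 of them. Part of this tally was fixed in advance. Hk2 has 1 probe, whose spots are unsaturated, unmarked and well above background on all 6 arrays. The alternatives on the probe rule, dim genes, saturated spots, outlier spots and background marks could therefore not change its value. The others reprocess the same spots. The size of the later, lower values depended on how background and scale were handled. With the normexp background correction Hk2 differed by 0.75 at day 21 and by -0.49, -0.40 and -0.36 at days 45, 55 and 70. With the authors' deposited table the values were 1.04 at day 21 and -0.36, -0.44 and -0.20 at the later days. Quantile normalization gave 1.34, -0.42, -0.76 and -0.36. The same quantile normalization moved the split of all genes at day 45 from 82 higher and 795 lower to 201 higher and 304 lower, at day 55 from 91 and 695 to 187 and 419, and at day 70 from 92 and 939 to 227 and 411.

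**Figure D2:**
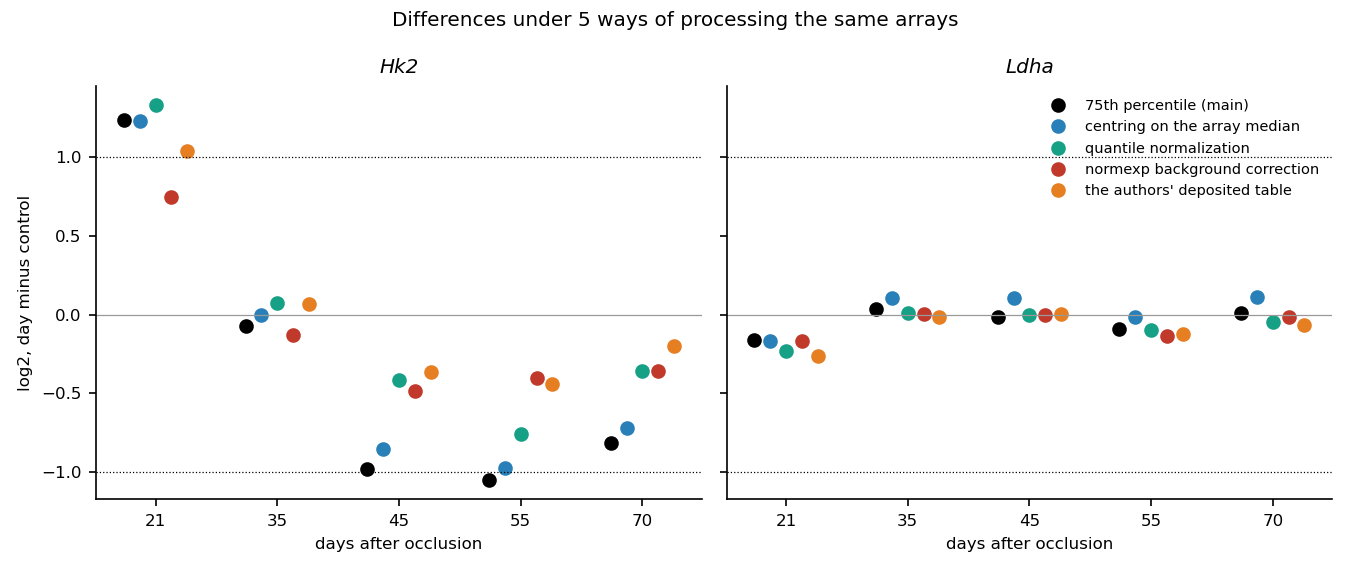
Difference from control (vertical axis, log2) of Hk2 and of Ldha at each day under 5 ways of processing, with the dotted lines at 2-fold. The Hk2 points at day 21 all lie above 0, from 0.75 to 1.34, and those at days 45, 55 and 70 all lie below 0 but spread from -1.05 to -0.20. The Ldha points stay between -0.26 and 0.11.

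Markers of other cell types moved at the same time as Hk2. At day 21 all 12 microglia and macrophage markers were above control, 9 of them at least 2-fold, with a median of 1.65, and their summed scaled signal was 69.7 against 23.1 in control and 21.8 to 26.1 on the other 4 arrays. The 8 astrocyte markers were above control too, with a median of 0.34, while the neuron markers had a median of -0.28 and a sum of 24.3 against 30.1. Choroid plexus markers were high at days 21, 35 and 70, with sums of 51.6, 26.4 and 44.0 against 3.09 in control, whereas Hk2 was high at day 21 alone. Ttr, by far the brightest of these markers, was saturated at day 21, so the sum of 51.6 is a lower limit. Otx2 was also 2.60-fold higher than control at day 55. Of 6 neutrophil markers, Elane and Cxcr2 were not well above background on any array. The neutrophil sum was 0.212 at day 21 and 0.236 at day 70, when Hk2 was low, against 0.104 in control and 0.0819 to 0.102 on the other arrays. At day 70 only Mpo was above control (2.81), while S100a9 and Csf3r differed by -0.62 and -0.38 and S100a8 was not well above background. All 6 markers of meninges and fibroblasts were above control at day 21, 3 of them at least 2-fold, with a median of 1.21 and a sum of 8.18 against 2.81 in control and 2.44 to 2.75 on the other arrays. The 5 oligodendrocyte markers with a measured difference were above control at day 21, with a median of 0.39. Red cell markers had medians of 0.22, -0.04, -0.93, -0.41 and -0.75 by day, and endothelial markers medians of -0.32, -0.27, -0.34, -0.17 and -0.17. The part of these cells in the Hk2 difference was not tested.

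Hk3 encodes a hexokinase known from white blood cells. Its probe (A_44_P114207) lies at chr17:15668934-15668993 in rn4. The signal was 28.2 in control, 32.5 at day 21, 29.5 at day 35, 116 at day 45, 4.86 at day 55 and 6.32 at day 70. The first 3 arrays lay together near 30, day 45 stood alone, and the spots at days 55 and 70 were not well above background. The day 45 difference of 2.03 (4.08-fold higher) made Hk3 the 1 member past 2-fold on that day, beside 6.34% of all genes in either direction and 0.592% higher. The local background around this spot was marked as non-uniform at days 35 and 45, and without such spots Hk3 has no day 45 value.

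At days 55 and 70 Hk3 has only a limit, set by the lowest signal well above background on each array: at least 2.03-fold lower at day 55 (-1.02) and at least 1.98-fold lower at day 70 (-0.99). With normexp these limits shrank to -0.32 and -0.41, and with the authors' deposited table to -0.64 and -0.32. The day 45 value ran from 1.02 with normexp to 2.95 against the mean of the other 5 arrays. In the dimmest class of genes, where Hk3 belongs, 19.1% of genes were at least 2-fold lower at day 55 and 25.9% at day 70. Hk3 at days 21 and 35 differed from control by 0.28 and -0.13, next to the 0.21 of single spots. The summed microglia markers, high at day 21, were at 24.5 at day 45 against 23.1 in control, and at 24.4 and 26.1 at days 55 and 70. The neutrophil sum was 0.0819 at day 45 and 0.0951 at day 55 against 0.104 in control. At day 70, where Hk3 was not well above background, this sum was highest at 0.236. On that array Mpo differed from control by 2.81, but S100a9 and Csf3r differed by -0.62 and -0.38. The part of these cells in the Hk3 values was not tested.

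Pfkm, Pfkl and Pfkp encode the muscle, liver and platelet subunits of phosphofructokinase, the main control step of the pathway, and the brain makes all of them. Pfkm (A_44_P251212, chr7:136845936-136845995) had signals of 7949 in control, 7472 at day 21, 11230 at day 35, 13271 at day 45, 10494 at day 55 and 12344 at day 70. The spot was marked as a non-uniform outlier on all 3 arrays of slide 1, the control included, and on none of slide 2, so Pfkm has no difference from control under the filter used here. With the marked spots kept, a setting added after the marks were seen, the differences were -0.01, 0.30, 0.72, 0.43 and 0.55, and slide 2 averaged 0.47 above slide 1. On the 3 unmarked arrays the scaled levels were 3.32 at day 45, 3.03 at day 55 and 3.15 at day 70. Non-uniform spots numbered 13 to 21 on the arrays of slide 1 and 0 to 1 on those of slide 2. The part of the spot mark in the higher Pfkm values of slide 2 was not tested.

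Pfkl was measured by probes that lie side by side in rn4. The brighter one (A_64_P163510, chr20:11032281-11032340) had signals of 860 in control, 893 at day 21, 940.1 at day 35, 869 at day 45, 739 at day 55 and 870.2 at day 70. It stayed near control at each day, with differences of 0.13, -0.07, 0.00, -0.19 and -0.07. The dimmer one (A_64_P163511, chr20:11032161-11032220) had signals of 593 in control, 393 at day 21, 667 at day 35, 463 at day 45, 424 at day 55 and 487 at day 70. Here control and day 35 were the high arrays, and the differences were -0.51, -0.03, -0.37, -0.45 and -0.37. The probes thus disagree at days 21, 45, 55 and 70, and at day 21 also in direction. The SD of 0.08 at this brightness is that of 1 difference between 2 spots. It does not cover a gap between 2 such differences, for which no SD was computed. The mean of both probes at day 21 was -0.19, so no direction is given for Pfkl.

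Pfkp (A_64_P014867, chr17:74822977-74823036) had signals of 28343 in control, 24673 at day 21, 29385 at day 35, 28622 at day 45, 26211 at day 55 and 29748 at day 70. Its scaled differences were -0.12, -0.15, 0.00, -0.08 and -0.01, within 1.11-fold over all 6 arrays. Relative to Pfkp, the brighter Pfkl probe changed by 0.25 at day 21 and by -0.11 to 0.08 on the other days.

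Pgk1 encodes phosphoglycerate kinase, an ATP-making step, and Pgam1 encodes the mutase of the next step. The Pgk1 probe (A_64_P147998, chrX:94340131-94340190) had signals of 49873 in control, 45569 at day 21, 57487 at day 35, 55020 at day 45, 48311 at day 55 and 55474 at day 70. The scaled differences were -0.05, 0.01, 0.13, -0.02 and 0.07. No spot was marked as saturated, although 7, 2 and 4 pixels of 60 or 61 were at the scanner's limit at days 35, 45 and 70, and the signal is near the top of the scale.

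The Pgam1 probe (A_43_P12753, chr10:110469834-110469894) was saturated in control and at days 35, 45 and 70, with signals of 56154, 58628, 57453 and 58697. Only the spots at day 21 (52007) and day 55 (57177) were not marked, with 2 of 63 and 24 of 64 pixels at the limit. Where both arrays are saturated no difference can be given, and against the saturated control the day 21 value is a limit of -0.03. The flat row of Pgam1 values therefore says little about its level. The array file places this probe on chr10 in rn4, whereas the Pgam1 promoter lies on chr1 in GRCr8. Whether the signal comes from Pgam1 alone was not tested.

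Ldha and Ldhb encode the M and H subunits of lactate dehydrogenase, whose mix differs between tissues. Ldha (A_64_P016403, chr1:97412370-97412429), the gene with the motif-bearing window printed above, had signals of 32269 in control, 27385 at day 21, 38013 at day 35, 32307 at day 45, 29657 at day 55 and 34510 at day 70. The scaled differences were -0.16, 0.04, -0.01, -0.09 and 0.01. Its probe shares a run of at least 20 bases with a probe of RGD1562690, which differed from control by -0.21 to -0.06, so the signal may hold more than 1 transcript.

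Ldhb (A_44_P414066, chr4:180061921-180063949, a span of 2029 bases for a probe of 60) had signals of 24928 in control, 22997 at day 21, 27902 at day 35, 26653 at day 45, 23487 at day 55 and 27550 at day 70. The differences were -0.04, -0.03, 0.08, -0.06 and 0.06. The ratio of Ldha to Ldhb changed by -0.12, 0.07, -0.09, -0.04 and -0.05 from control, a fold between 0.920 and 1.05.

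**Figure D3:**
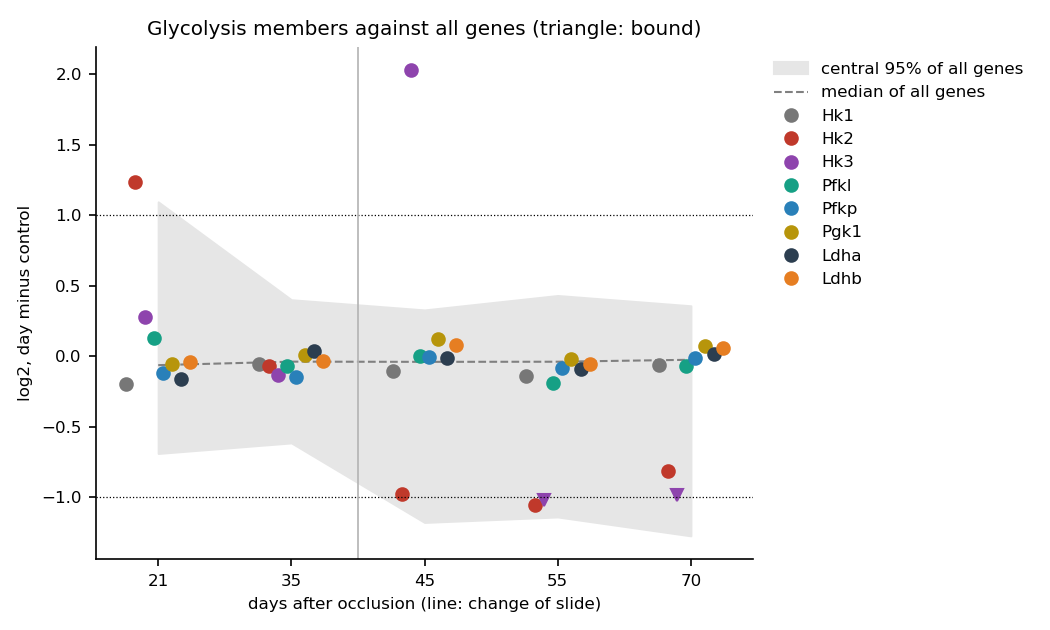
Difference from control (vertical axis, log2) of the 8 members with measured values, with the grey band holding the central 95% of all genes and triangles marking the limits of Hk3 at days 55 and 70. Of 38 measured values, 36 lie inside the band, and the exceptions are Hk2 at day 21 (1.24) and Hk3 at day 45 (2.03).

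The 25 differences of Hk1, Pfkp, Pgk1, Ldha and Ldhb ran from -0.20 to 0.13 with a median size of 0.06. Single spots of this brightness had an SD of a difference of 0.06 to 0.07, which holds no variation between pools. All 25 lay inside the central 95% of the brightest class of genes. Pairs of arrays on the same slide differed by a median of 0.07 in these 5 genes and pairs across slides by 0.08. The medians over all members measured were -0.04, -0.06, 0.00, -0.09 and -0.01 by day, beside -0.06, -0.04, -0.04, -0.04 and -0.02 over all genes. In the brightest class of genes, which holds all members but Hk2 and Hk3, only 1.25%, 0.0515%, 0.189%, 0.171% and 0.206% were 2-fold from control at the successive days, so few bright genes of any kind reached 2-fold.

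**Figure D4:**
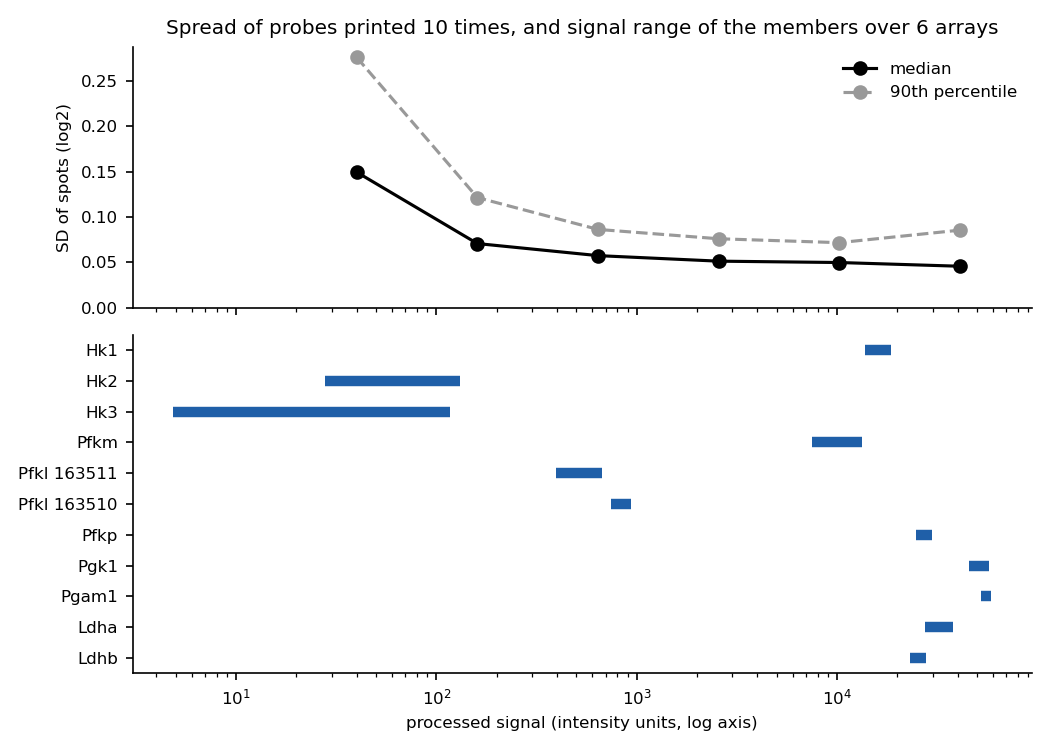
Upper panel, SD (log2, vertical axis) of spots of one probe printed 10 times on an array, as the median and the 90th percentile over such probes, against processed signal on a log axis. Lower panel, the lowest to highest signal of each member probe over the 6 arrays. Hk2 lies where the median SD is 0.15 or 0.07, Hk3 reaches below the signals for which an SD was computed, and the bright members lie where it is about 0.05.

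Other glycolysis genes were flat as well. Of 19 further genes of the pathway listed for this tissue, 18 were on the array, and their medians were -0.14, 0.05, 0.06, -0.18 and 0.01 by day. Aldoc and Eno1, an aldolase and an enolase, were saturated on all 6 arrays, and Pgk2, Pklr and Ldhc were not well above background on any. The 1 gene past 2-fold was Gapdhs, a sperm-type glyceraldehyde-3-phosphate dehydrogenase, which was not well above background in control and at least 4.83-fold higher at day 45 (0.81 to 2.88 under the alternatives). Among measured members of this list at day 45 the range was -0.74 to 0.21.

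Among 12 regulators, the 10 with measured values had medians of -0.13, -0.08, -0.17, -0.10 and -0.13. Pfkfb3, which makes the activator of phosphofructokinase, had scaled levels of -3.27 in control, -3.40 at day 21, -3.34 at day 35, -4.17 at day 45, -4.20 at day 55 and -4.36 at day 70. Unlike Hk2 it was not above control at day 21 (-0.13), although the alternatives ran from -0.17 to 0.47 and kept the sign in 9 of 10. At days 45, 55 and 70 it differed by -0.90, -0.93 and -1.09. These later values shrank to at most -0.46, -0.49 and -0.64 under the alternatives that moved them most, with no change of sign. The 2-fold call at day 70 was kept in 4 of 10 alternatives. With the mean of all its probes Pfkfb3 differed by -0.03 at day 21 and by -0.85 at day 70. Gckr, the glucokinase regulatory protein, was at least 2.34-fold higher at day 21 than a control not well above background. Mlxip, a glucose-sensing transcription factor, was at least 3.49-fold higher at day 35, the only array on which it was well above background. Under the alternatives these differences ran from 0.49 to 1.38 and from 0.68 to 2.14. Hif1a, the oxygen-regulated subunit of a hypoxia-inducible factor, differed by -0.14, -0.09, 0.01, 0.07 and 0.01 in its RNA.

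The list of 9 genes for glucose and lactate transport held 1 gene past 2-fold, at day 21, when 3.58% of all genes compared were at least 2-fold higher. Slc2a5, a fructose transporter known from microglia, had scaled levels of -2.22 in control, -0.54 at day 21, -2.26 at day 35, -1.88 at day 45, -2.18 at day 55 and -2.19 at day 70. Day 21 stood alone at 3.20-fold higher, and this difference stayed between 1.51 and 1.72 under the alternatives. Slc2a1, the glucose transporter of the blood-brain barrier, differed by 0.27 at day 21 and Slc2a3, that of neurons, by -0.38. The median of the 9 was -0.13 at day 21.

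Of 13 genes on the array for the entry of pyruvate into mitochondria, Pdhx, a subunit of the pyruvate dehydrogenase complex, differed by -0.22 and -0.08 at days 21 and 35. At day 45 it was not well above background, with a limit of -1.08, and at days 55 and 70 it differed by -0.78 and -1.16. These values shrank to -0.18, -0.31 and -0.49 in the authors' deposited table and to -0.32, -0.26 and -0.48 with normexp, so neither 2-fold call was kept there. The list's medians lay between -0.08 and 0.07. All 6 pentose phosphate genes on the array were above control at day 21, by 0.05 to 0.22 with a median of 0.18, none at 2-fold. Of all genes measured, 40.1% were above control at day 21 and 41.1% to 44.3% at the later days. The pentose phosphate genes above control numbered 5 at day 35, 5 at day 45, 3 at day 55 and 5 at day 70, with medians of 0.10, 0.03, 0.04 and 0.05. All 6 were above control at day 21 under each of the 5 scalings too, with medians of 0.15 to 0.18. Of 11 glycogen genes, Pygl, the liver glycogen phosphorylase, was not well above background in control and at least 3.24-fold higher at day 21 (1.70), with a range of 0.60 to 1.90 under the alternatives. The 9 measured glycogen genes had medians between -0.05 and 0.05.

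**Figure D5:**
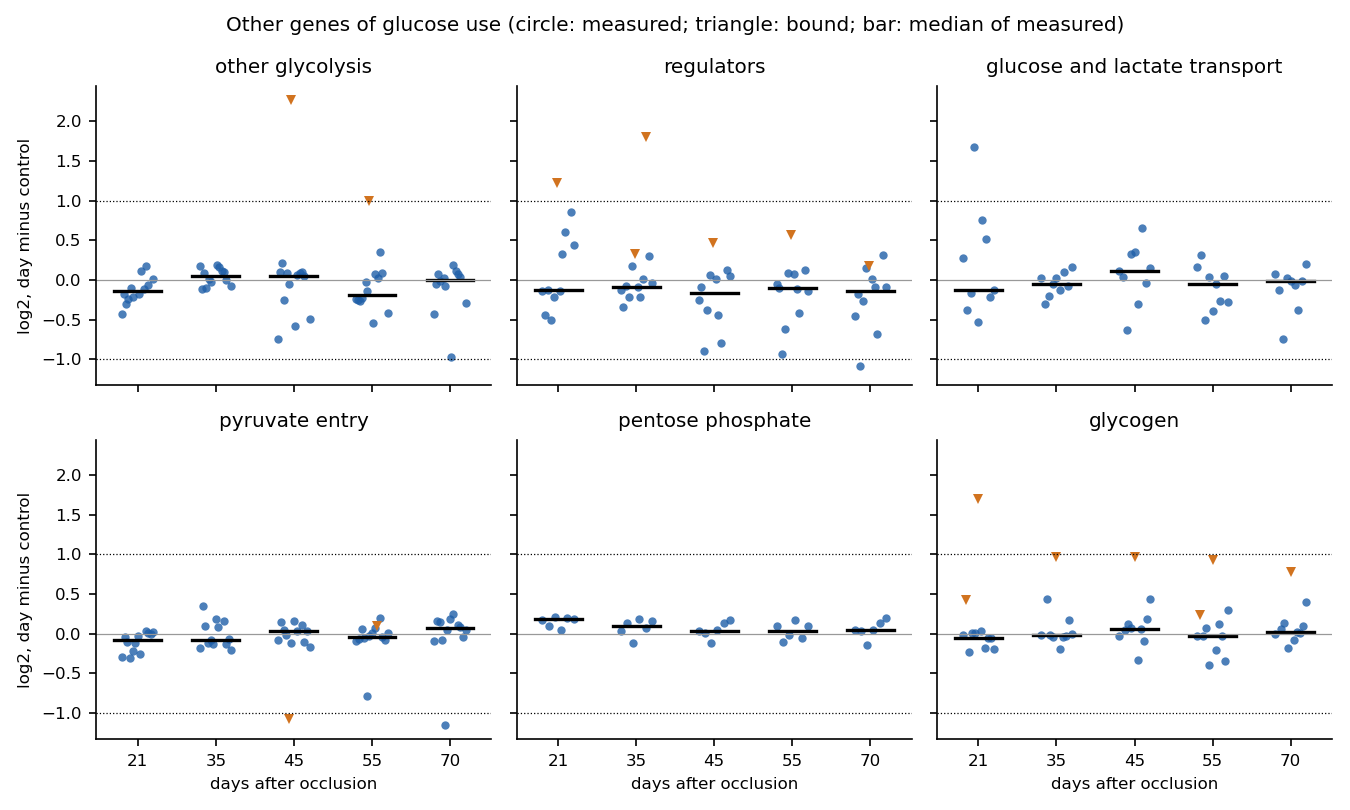
Difference from control (vertical axis, log2) of each gene in 6 lists of glucose use at each day, with circles for measured values, triangles for limits and a bar at the median of measured values. The bars lie between -0.18 and 0.18, and the measured points past 2-fold (dotted lines) are Slc2a5 at day 21 and Pfkfb3 and Pdhx at day 70.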

How the data were processed

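The authors deposited 1 scanner file per array, made by Agilent Feature Extraction (version 10.7.3.1, design 028282, probe positions in build rn4, per the file headers). The deposited intensity of a spot had its background subtracted and was not scaled between arrays. The labels name Cy5 as the dye, while the files hold 1 channel, the green one. The authors also deposited a table of intensities whose columns share a median near 298 and a 75th percentile near 1432. The sources used here do not say how this table was made, so it was kept as an alternative only.

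Outlier spots were left out (346 to 470 per array), log2 signals were scaled to each array's 75th percentile, and a gene was represented by its brightest probe. Names came from accessions, symbols and synonyms in a RefSeq table (GRCr8, used for names only): 17328 probes matched by accession, 2632 by symbol and 717 by synonym, 187 kept the file's name and 9503 had none. Differences are a day minus control. A spot not well above background was replaced by the lowest signal well above background on its array, or by its own signal if higher, and a saturated spot was used at its value, and each such difference is a limit. A count takes differences of at least 2-fold. Columns of per-sample values not used numbered 0.

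The members and gene lists were chosen with earlier results of these data known. Named genes were all members and, from the other lists, genes at least 2-fold from control at any day, saturated glycolysis genes, and the 5 genes most like the widest-ranging member. Hif1a, Slc2a1, Slc2a3, Pgk2, Pklr, Ldhc, Elane, Cxcr2, Mpo, S100a8, S100a9, Csf3r, Ttr and Otx2 were named after their values were seen. Alternatives numbered 11, of which 9 were planned and 2 added after the data were seen. They covered the probe rule, normexp with an offset of 50, quantile normalization, median centring, the authors' table, a filter on dim genes, another baseline, saturated spots, a 1.5-fold threshold, outlier spots and background marks. The counting of 2-fold differences was tested on simulated data. Python 3.11.15, pandas 2.3.3, numpy 2.4.6, R 4.3.3 and limma 3.58.1 (normexp) were used.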

Additional observations from a re-analysis of the deposited data

Results flagged for a closer look

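Hk2 lay on opposite sides of control at different days: day 21 was at 1.24 log2 units from control and day 55 at -1.05. The array of day 21 shares the control's slide and that of day 55 does not, and the difference between the days was not tested. Hk3 did the same, with day 45 at 2.03 and day 55 at a limit of -1.02. Both Hk3 arrays are on slide 2, the day 45 spot has a non-uniform local background, and this difference was not tested either.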

How the results depend on the processing

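Day 35 had 0 members at least 2-fold from control under all alternatives, and no difference of 2-fold or more turned its sign. With normexp the count was 0 at day 21 (1 as reported) and 0 at day 55 (2 as reported). At day 55 it was also 0 with quantile normalization, 0 with median centring and 0 with the authors' table. With genes well above background on all 6 arrays it was 0 at day 45 (1 as reported) and 1 at day 55, and 1 at day 55 against a baseline of the other 5 arrays. At 1.5-fold the count was 2 at day 45, 1 higher and 1 lower, beside 13.8% of all genes in either direction. At day 70 the 1.5-fold count was 2, all lower (0 as reported), beside 13.4% of all genes lower. With spots left out whose local background was marked it was 0 at day 45. Counts over all genes fell with normexp from 502 higher and 262 lower to 240 and 29 at day 21, and on the later days to 13 and 37 (63 and 157 as reported), 17 and 108, 30 and 77, and 39 and 130. The authors' table gave 371 and 115, 38 and 69, 69 and 147, 75 and 173, and 74 and 194 by day, and quantile normalization gave 115 and 134 at day 35. With the other 5 arrays as baseline the splits were 809 and 13, 328 and 25, 98 and 157, 103 and 71, and 115 and 160. With genes above background on all arrays they were 319 and 114, 19 and 52, 18 and 448, 27 and 291, and 25 and 452. The causes were not tested. Median centring moved the median of all genes by 0.12 at day 45.

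Single dim spots limit Hk2 and Hk3, and saturation limits Pgam1. The slide alternative was not run: days 21 and 35 already share the control's slide, and days 45, 55 and 70 have no control on theirs. No paired analysis was possible because each group has 1 array.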

Other observations

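Among 1333 genes well above background on all 6 arrays with a range of at least 1 log2 unit, the 5 whose scaled levels followed Hk2 most closely were Tcf7l1 (Pearson r 0.991 over 6 arrays), Acr (0.989), Pigv (0.987), Cnr2 (0.986) and Zic2 (0.986). Each was measured by 1 spot per array, and all points share the same 6 arrays and their scaling, so r is a description. At day 21 they differed from control by 0.59, 0.97, 0.47, 0.67 and 0.87, and at day 55 by -0.39, -0.77, -0.67, -1.05 and -0.60.

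The array also holds probes that the file describes as similar to members. The 5 probes similar to Ldha differed from control by at most 0.21 to 0.39 in size over the 5 days, the 1 similar to Ldhb by 0.17, and the 2 similar to Pgk1 by 0.09 and 0.28. Of the 3 similar to Pgam1, a gene whose own probe was saturated, 1 was well above background on 3 arrays only. Its largest difference, -0.64 at day 45, rests on a level of -6.77. That is below the lowest level well above background on that array, -6.19, so it is not a measured size. The 2 that were well above background on all 6 arrays differed by -0.29 and -0.32 at day 21 and by 0.21 and 0.18 at day 35. At day 55 they differed by -0.50 and -0.53.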
